A study of Mus musculus with 48 samples.

Results

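The genes described here encode 36 plasma proteins that the liver makes for blood clotting, complement and transport. They were chosen by gene symbol for the role of their protein, not by a threshold on their values, and make up 36 of the 24453 genes in the exon table. All 36 were also among the 20771 genes of the intron table, and all 36 passed the filter on low values in every library type. Of these, 16 belong to coagulation, anticoagulation and fibrinolysis and 16 to complement, with vitronectin counted there. The other 4 are fetuin-A (Ahsg), hemopexin (Hpx), albumin (Alb) and transthyretin (Ttr).

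The study profiled mouse liver RNA across the day in wild-type (WT) mice and in mice lacking Nono, which encodes an RNA-binding protein of nuclear paraspeckles. The 48 libraries fall into 4 groups of 12: WT total RNA, Nono-/- total RNA, WT nuclear RNA and Nono-/- nuclear RNA. Each group has 1 library at each of 12 zeitgeber times (ZT, hours after lights on), 2 h apart from ZT0 to ZT22. Total RNA came from a frozen piece of liver, and nuclear RNA from nuclei prepared from the remaining tissue of the same pool. All mice were C57BL/6, 14 weeks old, kept in a 12 h:12 h light-dark cycle, and had food only in the dark for the week before sampling. Each library is a pool of 2 mice, so differences between single animals are not seen. No time point was replicated, and the error of each test comes from the scatter of the pools around a fitted 24 h curve. How the Nono allele was made is not given in the labels.

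Clotting proceeds through a chain of proteases that ends when thrombin cuts fibrinogen into fibrin. Complement runs through the classical, lectin and alternative routes, which meet at C3 and end in the pore-forming proteins C6, C8 and C9. Hepatocytes secrete most of these proteins, and in inflammation the acute-phase response raises fibrinogen, hemopexin and several complement genes. Reads in introns come mainly from transcripts that are not yet spliced, so intron signal in nuclei is often read as a measure close to transcription, and exon signal in total RNA as a measure of mRNA.

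The fibrinogen genes are shown first because they had the widest fitted daily swings in nuclear introns among the 36. They lie side by side on chromosome 3 (mm10): Fgg at chr3:83007896-83015049 on the plus strand, Fga at chr3:83026153-83033617 on the plus strand and Fgb at chr3:83042305-83049790 on the minus strand. The gaps between them are 11103 and 8687 bp. The 250 bases before each RefSeq start site (GRCm38.p6) are printed 5′ to 3′ on the strand of the gene, at chr3:83007474-83007723 for Fgg, chr3:83025903-83026152 for Fga and chr3:83049864-83050113 for Fgb. The RefSeq start is the start used in the tables for Fga, and lies 172 bp from it for Fgg and 73 bp for Fgb. Capitals mark matches, on either strand, to CTGGGA (the core of the interleukin 6 response element of fibrinogen genes) and TTGCNNAA (C/EBP-like).
Fgg: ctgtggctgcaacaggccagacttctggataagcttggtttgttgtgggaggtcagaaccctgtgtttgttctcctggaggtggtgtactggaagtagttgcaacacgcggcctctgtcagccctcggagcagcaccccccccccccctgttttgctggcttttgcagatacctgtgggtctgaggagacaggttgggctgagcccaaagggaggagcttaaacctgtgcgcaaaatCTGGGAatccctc
Fga: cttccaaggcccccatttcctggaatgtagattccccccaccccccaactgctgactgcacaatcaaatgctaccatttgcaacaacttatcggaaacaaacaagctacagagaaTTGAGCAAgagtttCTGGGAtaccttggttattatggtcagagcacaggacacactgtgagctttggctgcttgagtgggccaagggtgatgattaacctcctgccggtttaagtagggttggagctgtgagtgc
Fgb: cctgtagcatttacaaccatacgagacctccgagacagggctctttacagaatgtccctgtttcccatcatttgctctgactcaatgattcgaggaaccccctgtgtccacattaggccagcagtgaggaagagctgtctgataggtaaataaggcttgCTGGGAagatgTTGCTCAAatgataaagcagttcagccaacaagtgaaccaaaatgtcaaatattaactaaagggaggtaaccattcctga
CTGGGA occurred once in each of the 3 sequences, ending 8 bases before the start in Fgg, 116 in Fga and 86 in Fgb. TTGCNNAA occurred in Fga and Fgb, ending 128 and 73 bases before the start, on the opposite strand in Fga. The E-box CACGTG and the D-box TTANGTAA, which circadian factors bind, were in none of the 3. All motifs were searched on both strands, and in these 3 sequences no match overlapped another. These are short motifs: CTGGGA was found in 27.0% of 32851 RefSeq promoters of this length, TTGCNNAA in 9.56%, CACGTG in 6.02% and TTANGTAA in 2.06%. Promoters were listed for 27 of the 36 genes, and of these 10 held CTGGGA, 10 TTGCNNAA, 2 TTANGTAA and 0 CACGTG. A match is a description of the letters and was not tied to binding.

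The genotype labels were checked on Nono itself. Its exon level was 9.95 ± 0.594 FPKM (fragments per kilobase of exon, scaled to the mapped reads of the library; SD, n = 12) in WT total RNA and 2.55 ± 0.194 FPKM in WT nuclear RNA. It lay between 0 and 0.091 FPKM in Nono-/- total RNA and between 0 and 0.032 FPKM in Nono-/- nuclear RNA. Depth worked out from the steps in the FPKM values was 9.91 M to 28.9 M reads per library. The libraries carried hepatocyte markers at a summed 23456 to 32365 FPKM in WT total RNA and 20735 to 31936 FPKM in Nono-/- total RNA, with all 12 markers detected. In nuclear RNA the same sum was 1043 to 2184 FPKM in WT and 833 to 1612 FPKM in Nono-/-. Markers of Kupffer cells, the liver's macrophages, summed to 109 to 278 FPKM in WT total RNA and 131 to 357 FPKM in Nono-/- total RNA, again with all 12 detected. In the genotype comparison of total RNA exons 6 of these 12 markers were higher in Nono-/- and 0 lower. Of all tested genes, 4.45% were higher and 6.48% lower. The mean sum of stellate cell markers was 133 FPKM in WT and 156 FPKM in Nono-/- total RNA, and that of endothelial markers 139 and 148 FPKM. The part of these cell types in the results was not tested. In bulk RNA, fewer cells of a type and less RNA per cell cannot be told apart.

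One pool in each genotype stood apart in acute-phase genes. Saa1, a serum amyloid A gene, reached 4490 FPKM in the WT pool at ZT10, against 719 FPKM in the next WT library and a median of 85.2 FPKM. In Nono-/- total RNA it reached 3203 FPKM at ZT20, against 484 FPKM in the next library and a median of 308 FPKM. Lcn2, which encodes the siderophore-binding lipocalin 2, was also highest in these pools, at 373 FPKM and 126 FPKM. Saa1 and its near-identical neighbour Saa2 may share reads, so their separate levels are uncertain. The WT ZT10 pool held the highest WT exon FPKM of 14 of the 36 genes in total RNA. Counts of called genes in total RNA are therefore also given without these 2 pools. Fitted daily ratios and peak times are given only with them. The WT pool at ZT8 held the lowest WT exon FPKM of 18 genes in total RNA and 20 in nuclear RNA, and the Nono-/- pool at ZT2 the lowest Nono-/- exon FPKM of 20 in nuclear RNA.

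These genes are among the most abundant in liver. Together they took 15.8 ± 1.2% of the summed exon FPKM in WT total RNA and 15.5 ± 1.33% in Nono-/- total RNA (SD, n = 12 each). In nuclear RNA the shares were 4.03% and 4.14%. Albumin, the main carrier protein of plasma, was the highest gene in WT total RNA, at 29803 ± 4970 FPKM. It alone took 9.06% of exon FPKM in WT and 8.57% in Nono-/- total RNA.

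The other transport and protease-inhibiting proteins came next. In WT total RNA Ahsg was at 2953 ± 345 FPKM, Ttr, which carries thyroid hormone and the retinol-binding protein, at 2870 ± 639 FPKM and Hpx, which binds heme, at 2558 ± 1212 FPKM. The fibrinogen chains stood beside them, with Fgb at 2770 ± 1142 FPKM, Fgg at 2309 ± 869 FPKM and Fga at 1705 ± 704 FPKM. The SD of each chain holds the change over the day that the chains share, so it is not the error of a comparison between them. Within every WT pool the order was Fgb, Fgg and Fga, from high to low. The 3 proteins are assembled in equal numbers into fibrinogen.

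Among the complement genes C3, the hub of the cascade, was highest at 1226 ± 297 FPKM. Vtn, which encodes vitronectin and blocks the terminal pore, followed at 799 ± 187 FPKM, and Cfb, the protease subunit of the alternative route, was at 415 ± 68.2 FPKM. The lectin-route protease gene Masp1 was lowest of the complement genes, at 30.8 ± 6.26 FPKM. C4b has a near-identical copy, C4a, so its value of 113 ± 34.6 FPKM is uncertain.

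Among the genes of the terminal steps, C8a, Hc and C9 stood close together. C8a was at 293 ± 42.2 FPKM, Hc, which encodes C5 and starts the terminal steps, at 292 ± 52 FPKM and C9 at 287 ± 57.8 FPKM. The means of these 3 lie within each other's SD. That SD holds the change over the day in the same pools, so it is not the error of a comparison between them. The other C8 chains were at 200 ± 28 FPKM for C8g and 179 ± 26.9 FPKM for C8b, and C6 was at 101 ± 8.84 FPKM. Cfi was at 285 ± 34.2 FPKM and C2, the protease subunit of the classical and lectin routes, at 43.5 ± 5.33 FPKM. The mannose-binding lectins Mbl2 and Mbl1, which recognise sugars on microbes, were at 182 ± 22.3 and 146 ± 32 FPKM.

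The other coagulation and fibrinolysis genes, listed here with Masp2 of the lectin route, covered a similar range. Kng1, the kininogen of the contact pathway, was at 748 ± 112 FPKM, but shares sequence with Kng2, so its level is uncertain. Plg, which encodes plasminogen, the precursor of the fibrin-dissolving enzyme, was at 514 ± 56.2 FPKM and F2, which encodes prothrombin, at 477 ± 70.8 FPKM. Between them and the lowest stood Proc at 130 ± 26.4 FPKM, F10, whose product cuts prothrombin, at 112 ± 18.4 FPKM, Klkb1 at 106 ± 19.1 FPKM, F13b at 105 ± 16.7 FPKM and F5 at 96.3 ± 11.9 FPKM. Masp2, a lectin-route protease, was at 85.0 ± 18 FPKM, F9, the protease lacking in hemophilia B, at 74.3 ± 6.98 FPKM and F12, which starts the contact pathway, at 74.1 ± 19.8 FPKM. The lowest were F11 at 28.6 ± 5.23 FPKM, F7 at 27.5 ± 4.62 FPKM and Pros1, which encodes the anticoagulant protein S, at 27.4 ± 4.79 FPKM. The means of these 3 lie within each other's SD, which again is not the error of a comparison between them. The lowest of the 36, Pros1, still ranked 1337 among 18591 genes above 0.

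**Figure D1:**
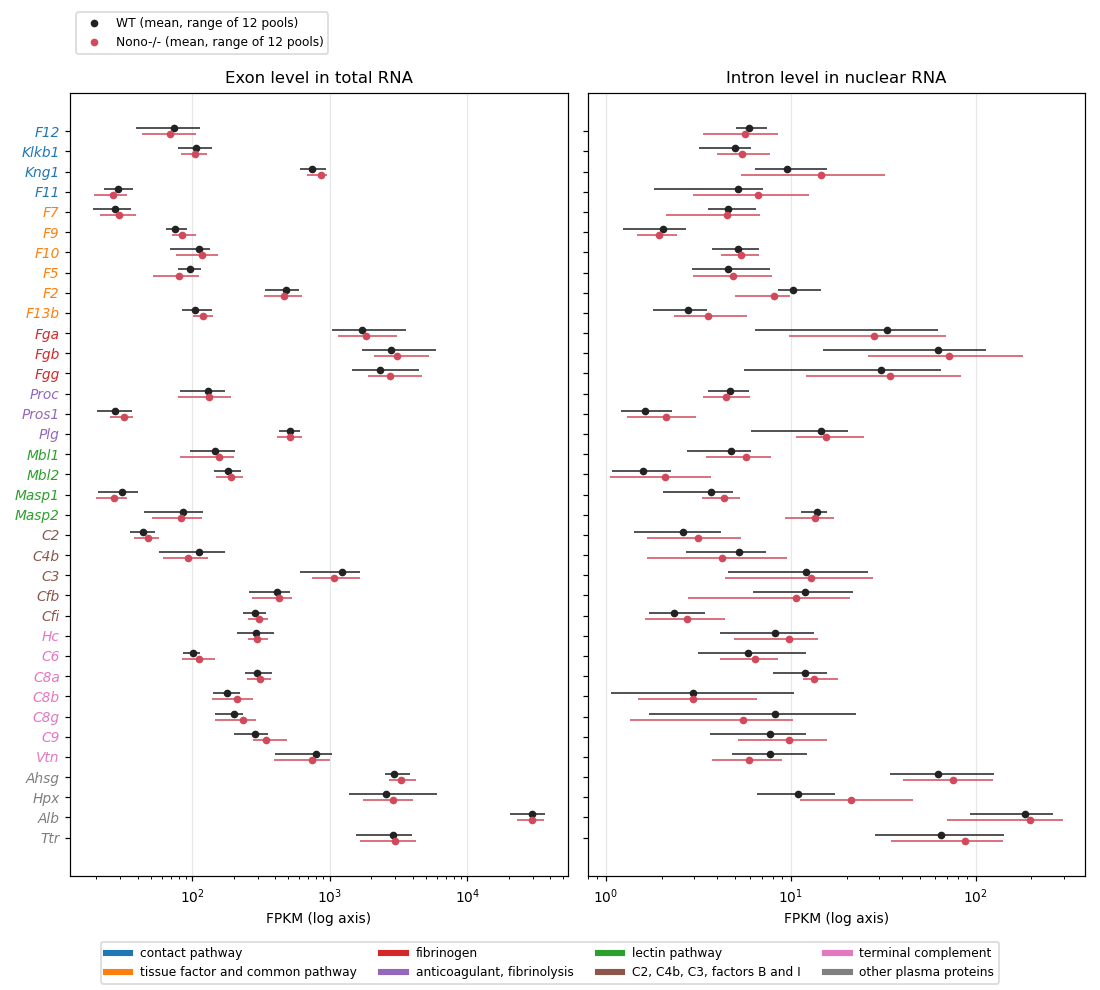
Levels of the 36 genes, one row per gene, coloured by role. Points are means and bars the range over 12 pools for WT (black) and Nono-/- (red), on log axes in FPKM, with exons of total RNA on the left and introns of nuclear RNA on the right. The genotypes overlap for every gene in both panels, and the fibrinogen genes have wide intron ranges, from 5.56 to 65.1 FPKM for Fgg in WT.

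Several of the genes are neighbours and so share their region. Cfb and C2 are 87 bp apart on chromosome 17, F7 and F10 are 1502 bp and F11 and Klkb1 7419 bp apart on chromosome 8, and C8b and C8a 11131 bp apart on chromosome 4. Reads were counted with no strand option stated, and F5, Ahsg and C8g overlap a gene on the other strand, and C3 and Cfb a microRNA gene. The exon value of Masp2 comes from a short entry of 737 bp. For Kng1, F9, F10, Proc, Masp2 and C8g the exon and intron values come from different transcript entries.

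The daily course of the fibrinogen genes was steep in nuclear introns. In WT nuclei the intron level of Fga was 6.39 FPKM at its lowest (ZT8), 32.0 FPKM at the median and 62.7 FPKM at its highest (ZT0). Fgb ran from 14.9 FPKM at ZT8 to 113 FPKM at ZT0 with a median of 68.6 FPKM, and Fgg from 5.56 FPKM at ZT8 to 65.1 FPKM at ZT0 with a median of 32.0 FPKM. All 3 were thus lowest in the same WT pool, late in the light phase, and highest in the same pool, at its start.

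In Nono-/- nuclei the 3 genes were all highest at ZT2. Fga ran from 9.75 FPKM at ZT10 to 69.4 FPKM with a median of 21.2 FPKM, Fgb from 26.1 FPKM at ZT12 to 180 FPKM with a median of 52.5 FPKM, and Fgg from 12.0 FPKM at ZT12 to 83.4 FPKM with a median of 24.2 FPKM. The ranges of the 2 genotypes overlap over most of their length.

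The fitted 24 h curves gave similar swings in both genotypes. In WT the ratio of peak to trough was 4.89 for Fga, 4.83 for Fgb and 5.52 for Fgg (limma with Benjamini-Hochberg adjustment over 12055 genes, adjusted p = 0.00591, 0.00448 and 0.00221). In Nono-/- it was 5.60, 4.53 and 5.61 (adjusted p = 0.003, 0.00518 and 0.00206). These 6 calls held when any 1 time point was left out, and under each other alternative tried. The fitted peaks lay at ZT21.8, ZT21.4 and ZT21.5 in WT and at ZT23.5, ZT23.9 and ZT0.0 in Nono-/-, which is 1.69 to 2.58 h later. The difference in rhythm between genotypes did not pass the test for any of the 3, with the smallest p for Fgg (p = 0.0614, limma, adjusted p = 0.745).

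**Figure D2:**
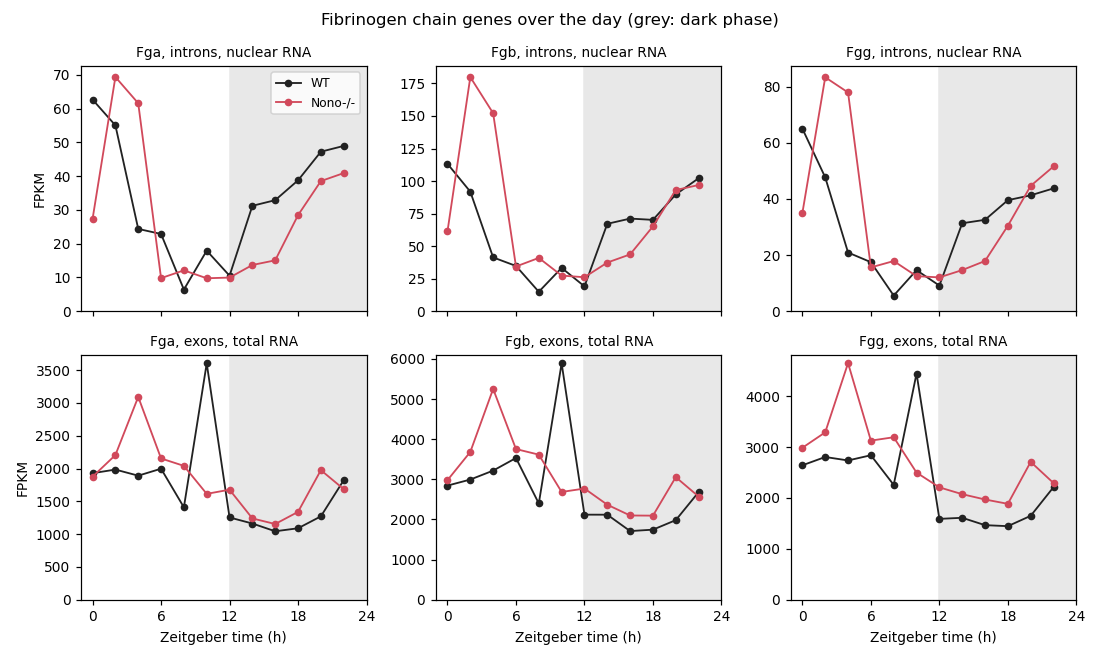
Fibrinogen genes by zeitgeber time, in FPKM on linear axes that start at 0, with 1 pool per point (WT black, Nono-/- red) and the dark phase in grey. Intron levels in nuclei (top) fall to a trough between ZT8 and ZT12, and the high WT value in total exons (bottom) is the ZT10 pool, at 5891 FPKM for Fgb.

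Fibrinogen mRNA varied less and peaked later in the day than the intron signal. Fgb in WT total RNA ran from 1711 FPKM at ZT16 to 5891 FPKM at ZT10 with a median of 2541 FPKM, and in Nono-/- from 2096 FPKM at ZT18 to 5253 FPKM at ZT4 with a median of 2876 FPKM. The WT maximum is the pool with high Saa1. The Nono-/- maximum, at ZT4, is not the Nono-/- pool with high Saa1. That ZT4 pool did hold the second-highest Nono-/- Lcn2 level, at 37.1 FPKM against a median of 12.3 FPKM. It also held the highest Nono-/- Hpx level, at 4052 FPKM. Fitted ratios of peak to trough in WT were 1.91 for Fga, 1.98 for Fgb and 2.10 for Fgg (limma, adjusted p = 0.0188, 0.00897 and 0.00333), with peaks between ZT5.0 and ZT5.8. In Nono-/- they were 1.81, 1.79 and 1.79 (adjusted p = 0.0334, 0.0256 and 0.0205), with peaks between ZT3.7 and ZT4.5. The mRNA peak thus came 7.23 to 8.49 h after the intron peak in WT and 4.06 to 4.6 h after it in Nono-/-, given as a description with no test. The WT mRNA maximum of all 3 chains is the ZT10 pool, and the WT peaks and lags are not given without it. The WT calls of Fgb and Fgg held when any 1 time point was left out. That of Fga was lost without ZT16 (adjusted p = 0.0659) or ZT18 (0.059). In Nono-/- all 3 calls were lost without ZT4 or ZT18, with adjusted p of 0.0986 to 0.133 without ZT4 and 0.0603 to 0.0753 without ZT18. Fga and Fgb were also lost without ZT14 (0.0872 and 0.0515), ZT16 (0.0991 and 0.0646) or ZT2 (0.0672 and 0.0553).

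Across all 36 genes, a daily rhythm in nuclear introns passed the test for 11 in WT, where 20.7% of all tested genes passed, and for 23 in Nono-/-, where 31.7% passed. Of these, 10 passed in both, Ahsg passed in WT only and 13 in Nono-/- only. The median ratio of peak to trough was 1.53 over the 36 genes in WT and 1.33 over all genes, and 1.94 against 1.41 in Nono-/-. A fitted ratio cannot fall below 1, and scatter alone raises it. The difference in rhythm itself passed for 0 of the 36 and for 0% of the 12055 genes (limma). At an unadjusted p under 0.05 it picked 1 of the 36, Hpx (p = 0.0233), and 800 of all genes, so passing in 1 genotype only does not show that the rhythms differ.

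The genes with a nuclear intron rhythm in WT came from both cascades. C8g introns ran from 1.72 FPKM at ZT8 to 22.5 FPKM at ZT22 with a median of 6.07 FPKM in WT, and from 1.34 to 10.3 FPKM with a median of 4.56 FPKM in Nono-/-. Ttr ran from 28.5 FPKM at ZT12 to 142 FPKM at ZT16 in WT and from 34.9 to 140 FPKM in Nono-/-, and F11 from 1.83 FPKM at ZT12 to 7.09 FPKM at ZT2 in WT and from 2.96 to 12.6 FPKM in Nono-/-. The genotypes overlap in each.

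The fitted curves gave these swings in numbers. C8g, the small subunit of complement component C8, had a ratio of peak to trough of 4.61 with its peak at ZT19.8 (limma, adjusted p = 0.00719), though it overlaps Fbxw5 on the other strand and its introns sum to only 807 bp. Ttr reached 3.35 at ZT18.2 (adjusted p = 0.0148) and F11, a protease of the intrinsic route, 2.87 at ZT2.1 (adjusted p = 0.00655). F5, the cofactor of factor Xa, gave the smallest adjusted p, with 2.31 at ZT5.4 (adjusted p = 0.000949). Ahsg, Plg, C2 and Proc, which encodes the anticoagulant protein C, passed with ratios of 2.38, 2.19, 2.03 and 1.5. Their peaks were at ZT5.5, ZT21.7, ZT9.9 and ZT6.4. With the fibrinogen genes included, the WT peaks lay between ZT2.1 and ZT9.9 or between ZT18.2 and ZT21.8. C2, F11, F5, Proc and the 3 fibrinogen genes passed whichever 1 time point was left out. C8g was lost without ZT8 (adjusted p = 0.0505), Plg without ZT8 (0.0941) or ZT12 (0.0754), Ttr without ZT16 (0.0551) and Ahsg without ZT4 (0.0661), ZT8 (0.0838), ZT14 (0.0517) or ZT18 (0.0821).

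In Nono-/- nuclei, 12 of the 23 calls held when any 1 time point was left out: the same 7 genes, and C9, Cfi, F7, Kng1 and Pros1. F11 had a ratio of 3.99 with its peak at ZT3.9 (limma, adjusted p = 0.000781), C9, which forms the complement pore, 2.90 at ZT21.8 (adjusted p = 0.00406) and Kng1 2.88 at ZT3.9 (adjusted p = 0.00366). These rank below the fibrinogen genes and, for C9 and Kng1, above their own WT ratios of 2.04 and 1.62, which did not pass. The count fell from 23 to between 15 and 20 when 1 time point was left out, and it was 15 without ZT2, ZT6 or ZT16. Over the 10 genes that passed in both genotypes, the Nono-/- peak was later for 8, with a median shift of 1.70 h and a range from -2.51 to 2.58 h.

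In total RNA exons 8 of the 36 passed in WT, where 31.6% of all tested genes passed, and 15 in Nono-/-, where 29.6% passed. F11, Fga, Fgb and Fgg passed in both. In WT the others were Klkb1, which encodes plasma kallikrein (ratio 1.58, peak at ZT7.0), Masp1 (1.52, ZT17.9), C9 (1.63, ZT4.7) and Pros1 (1.47, ZT8.7). In Nono-/- the others were F12, F7, F10, F5, F2, Mbl1, Cfb, C8g, Vtn, Ahsg and Ttr. Without the 2 acute-phase pools, 14 of the 36 passed in WT, 7 of them among the 8, and 17 in Nono-/-. Shares over all genes without these pools are not given here. The WT count was 5 without ZT18 and 11 without ZT0 or ZT10, where 34.3% and 33.9% of all tested genes passed. The Nono-/- count was 5 without ZT16, 7 without ZT14, 8 without ZT2 and 9 without ZT4. Of all tested genes, 22.4% passed in Nono-/- without ZT14, 23.4% without ZT2 and 24.1% without ZT4. The calls of Cfb, F10, F5 and Ttr in Nono-/-, and of F11, Fgb, Fgg, Klkb1 and Masp1 in WT, held whichever time point was left out. The difference in rhythm passed for 0 of the 36 and 0% of 11352 genes (limma). At an unadjusted p under 0.05 it picked 0 of the 36 and 1207 of all genes.

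The fitted swing was larger in nuclear introns than in mRNA for 29 of the 36 genes in WT and for 27 in Nono-/-. The median ratios were 1.53 in introns and 1.33 in mRNA in WT, and 1.94 and 1.37 in Nono-/-. In WT 4 genes passed in both readouts, 7 in nuclear introns only, 4 in mRNA only and 21 in neither. In Nono-/- the counts were 10, 13, 5 and 8. Whether a gene's swing differs between the readouts was not tested, and intron values carry more scatter than the values of abundant mRNAs.

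**Figure D3:**
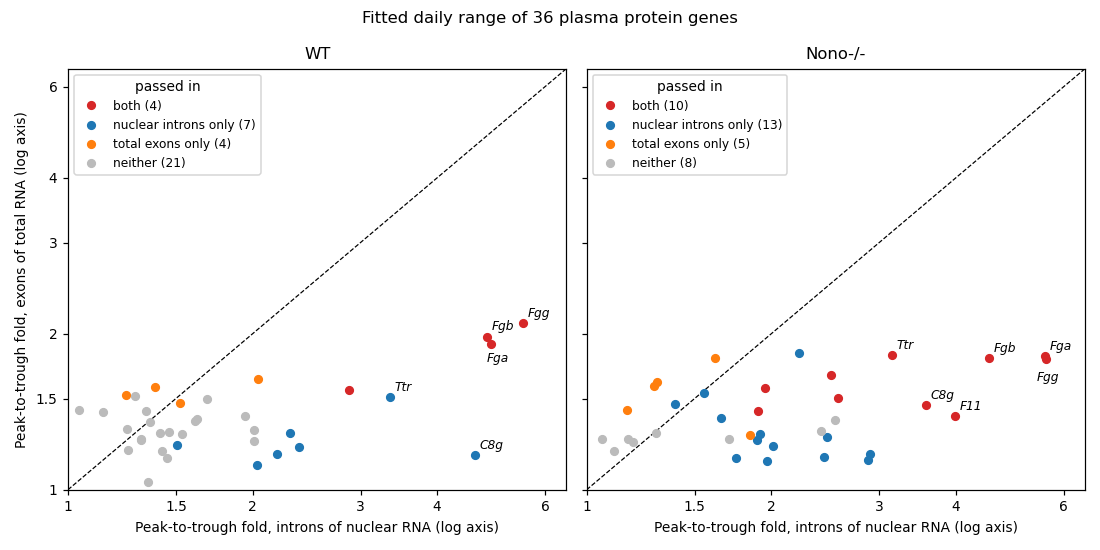
Fitted ratio of peak to trough over 24 h in nuclear introns (x axis) and in exons of total RNA (y axis), both on log axes, with 1 point per gene and the dashed line at equal ratios. Colours give the readouts in which the rhythm passed, and Fga, Fgb and Fgg lie far below the line, at 4.83 to 5.52 in introns against 1.91 to 2.10 in mRNA in WT.

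The mRNA of these genes differed little between genotypes. In total RNA exons 0 of the 36 were higher in Nono-/-, where 4.45% of all tested genes were higher, and 1 was lower, where 6.48% were lower. The median difference was 0.05 (log2, Nono-/- minus WT) over the 36 genes and 0.00 over all 11352 genes. At an unadjusted p under 0.05 there were 10 of the 36 and 2962 of all genes.

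The gene that fell was F5 (chr1:164151835-164220277, plus strand). In WT total RNA it was at 78.0 FPKM at its lowest, 93.8 FPKM at the median and 116 FPKM at its highest, and in Nono-/- at 51.4, 76.8 and 111 FPKM. The ranges overlap, and Nono-/- was lower at 11 of 12 time points. The difference was -0.31 ± 0.077 (log2, SE; limma, adjusted p = 0.0135). The call held when any 1 time point was left out. It was lost with the share of intron reads as a covariate (adjusted p = 0.476), a share that was 22.1% in WT total RNA and 18.5% in Nono-/- total RNA. F5 introns in nuclei did not pass (adjusted p = 0.592), at 4.58 ± 1.55 FPKM in WT and 4.88 ± 1.82 FPKM in Nono-/-.

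Fibrinogen and hemopexin mRNA did not pass in all pools. The differences were 0.13 for Fga, 0.17 for Fgb, 0.26 for Fgg and 0.21 for Hpx. Without ZT10 in both genotypes, 7 of the 36 passed (19.4%), where 11.2% of all 11352 tested genes passed. F5 fell by 0.37. Fga, Fgb, Fgg and Hpx were higher in Nono-/-, by 0.23, 0.28, 0.35 and 0.38, and the C8 subunit genes C8b and C8g by 0.26 and 0.22. Without the 2 acute-phase pools alone, 4 passed: F5 at -0.34, Fgb at 0.24, Fgg at 0.33 and C8b at 0.26 (limma, adjusted p = 0.0167, 0.0324, 0.0102 and 0.0386). Without ZT20 in both genotypes, 2 passed, F5 at -0.34 and Masp1 at -0.24. Shares over all genes without the acute-phase pools and without ZT20 are not given here. In the WT ZT10 pool Hpx was at 6007 FPKM and Fgg at 4447 FPKM, the highest WT value of each. Of the 4 genes that open this paragraph, Fgb and Fgg passed in both settings without that pool, as did C8b. Fga and Hpx passed only when ZT10 was left out in both genotypes. That pool held the highest WT value of all these genes, so leaving it out lowers their WT mean. The acute-phase pools were singled out after their values were seen. Passing without that pool is thus not separate evidence of a difference.

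**Figure D4:**
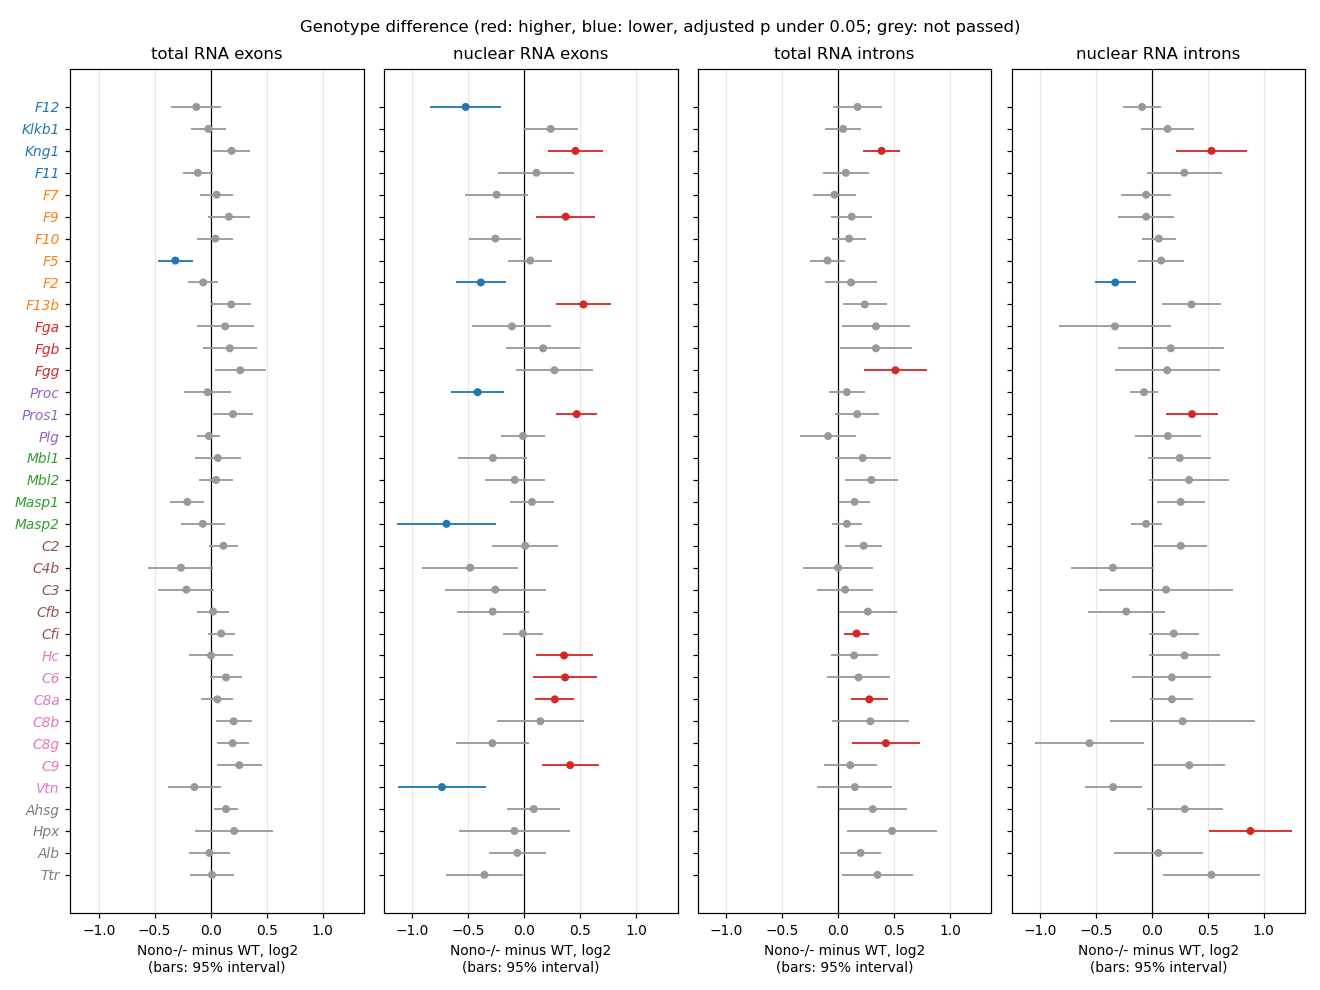
Genotype difference (Nono-/- minus WT, log2) of the 36 genes in the 4 readouts, with bars for the 95% interval from the fit over 12 pools per genotype. Red and blue mark adjusted p under 0.05: 1 gene in total RNA exons, 13 in nuclear RNA exons, 5 in total RNA introns and 4 in nuclear RNA introns, with F5 the gene called in total RNA exons. Of all tested genes, 10.9%, 34.3%, 16% and 18.1% passed in these readouts.

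Exon signal in nuclei differed for 13 of the 36 genes, near the share over all tested genes, 34.3%. In total RNA exons that share was 10.9%. In nuclear RNA exons 8 of the 36 were higher in Nono-/-, where 15.7% of all tested genes were higher, and 5 were lower, where 18.6% were lower (34.3% in either direction). The median was -0.01 over the 36 genes and 0.00 over all 10500 genes. The 8 were the clotting genes Pros1, F13b, F9 and Kng1 and the terminal complement genes C9, C8a, Hc (complement C5) and C6. The 5 were Vtn, F2, Proc, F12 and Masp2. The hepatocyte marker sum in these libraries was 1606 FPKM in WT and 1229 FPKM in Nono-/-, and its part in these differences was not tested.

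Protein S showed the smallest adjusted p. Pros1 (chr16:62854307-62929342) was at 3.87 FPKM at its lowest, 5.49 FPKM at the median and 6.18 FPKM at its highest in WT nuclei, and at 4.82, 6.32 and 8.39 FPKM in Nono-/- nuclei. The ranges overlap, and Nono-/- was higher at 10 of 12 time points. The difference was 0.47 ± 0.090 (limma, adjusted p = 0.00195). F13b, the carrier subunit of the fibrin-crosslinking factor XIII, was higher by 0.53 ± 0.119 (adjusted p = 0.00401), from a median of 8.54 FPKM in WT to 11.3 FPKM in Nono-/-. Kng1 was at 26.9, 38.7 and 58.8 FPKM (lowest, median and highest) in WT and at 28.5, 46.3 and 76.7 FPKM in Nono-/-. It was higher by 0.46 (adjusted p = 0.00795) and C9 by 0.41 (adjusted p = 0.0162).

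Vitronectin fell most. Vtn (chr11:78499120-78502325) was at 13.7 FPKM at its lowest, 33.2 FPKM at the median and 81.3 FPKM at its highest in WT nuclei, and at 5.36, 22.1 and 37.9 FPKM in Nono-/- nuclei. The ranges overlap, and Nono-/- was lower at 11 of 12 time points, by -0.74 ± 0.188 (limma, adjusted p = 0.00735). F2 fell by 0.39 (adjusted p = 0.0105) from a median of 37.4 FPKM to 24.2 FPKM, and Proc by 0.42 (adjusted p = 0.0101). Both were lower at 11 of 12 time points.

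Of the 13 calls, 7 held when any 1 time point was left out: Pros1, F13b, Kng1, C9, Vtn, F2 and Proc. Without ZT6 or ZT18, 8 of the 36 passed. F12 was lost without ZT6 (adjusted p = 0.0516), Masp2 without ZT6 (0.0584) or ZT18 (0.0506) and C8a without ZT18 (0.0548). F9, Hc and C6 were each lost without any of several time points, at an adjusted p of up to 0.1, 0.0699 and 0.116. With the share of intron signal as a covariate, which was 73.2% in WT and 74.6% in Nono-/- nuclear RNA, only Pros1 and F13b passed. With no scaling between libraries the median of all genes moved to -0.20 and higher genes made up 10.1% of calls in place of 45.7%. Then 2 of the 36 were higher (Pros1 and F13b) and 8 lower.

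The called genes differed in intron length. The 8 higher genes had summed introns of 19661 to 73980 bp, with a median of 55042 bp, and the 5 lower genes 1454 to 13491 bp, with a median of 9094 bp. Over the 15 genes with under 10 kb of introns the median difference in nuclear exons was -0.28, and 3 were above 0 (36.1% of all genes in that class). Over the 21 with more it was 0.11, and 14 were above 0 (57.3% of all genes in that class). Across genes, Spearman's rho between intron length and the difference was 0.61 for the 36 and 0.24 for 9905 genes with a length. It was 0.40 and 0.28 in nuclear introns, -0.05 and -0.18 in total RNA exons, and -0.44 and -0.43 in total RNA introns. These are descriptions across genes that share the same libraries, and genes are not independent replicates.

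**Figure D5:**
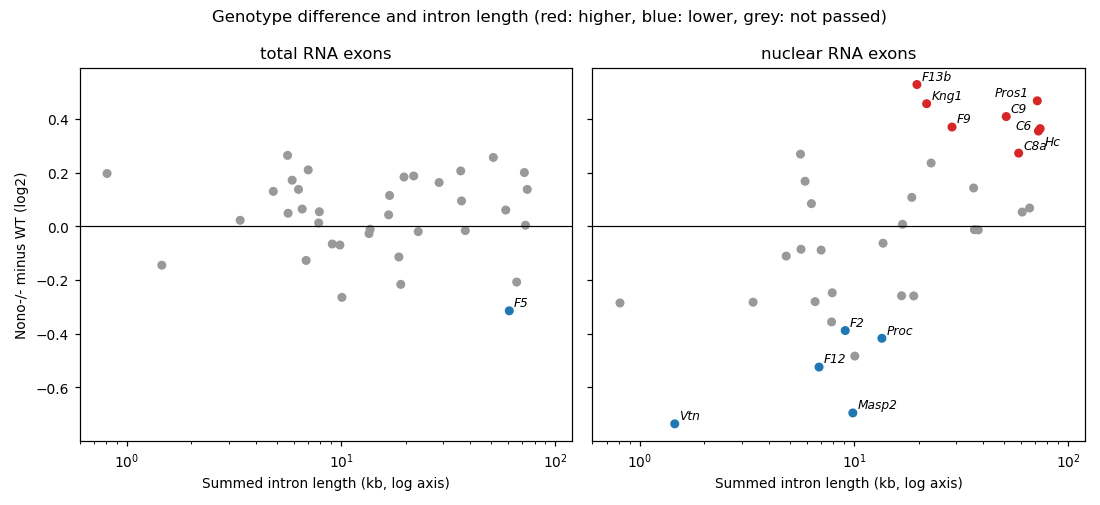
Genotype difference (Nono-/- minus WT, log2) against the summed intron length of each gene in kb on a log axis, for exons of total RNA (left) and nuclear RNA (right), with 1 point per gene. In nuclear exons the 8 higher genes (red) all have at least 19661 bp of introns and the 5 lower genes (blue) up to 13491 bp, while total RNA shows 1 called gene, F5.

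Intron signal in total RNA was also compared. There 5 of the 36 were higher in Nono-/-, where 6.62% of all tested genes were higher, and 0 were lower, where 9.34% were lower. At an unadjusted p under 0.05 there were 16 of the 36 and 2947 of all 9422 genes. The median was 0.17 over the 36 genes, with 33 of 36 above 0, and 0.00 over all 9422 genes. Kng1 was higher by 0.39 ± 0.080 (limma, adjusted p = 0.00369), Fgg by 0.51 (0.0149), C8a by 0.28 (0.0234), Cfi, the protease that degrades C3b and C4b, by 0.17 (0.0444) and C8g by 0.43 (0.0496). These differences are relative to the libraries' own medians. As deposited, the Cfi level was 1.12 ± 0.180 FPKM in WT and 1.05 ± 0.173 FPKM in Nono-/-. With no scaling the median of all genes was -0.21, Cfi turned to -0.082 and 1 of the 36 passed, F5, at -0.34.

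The Kng1 call alone held when any 1 time point was left out. Fgg was lost without ZT18 (adjusted p = 0.0503), C8a without any of 7 time points and Cfi and C8g without nearly any. Without ZT10, 11 of the 36 passed, all higher, Hpx at 0.70 and Fgg at 0.63 among them, and without ZT18 only Kng1 passed. Without the 2 acute-phase pools 8 passed. Shares over all genes without ZT10 or without these pools are not given here. With the time point as a block, Cfi (adjusted p = 0.0654) and C8g (0.0724) were lost and F13b, Mbl2 and C2 passed. With the share of intron reads as a covariate 0 passed.

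Part of this intron signal in total RNA need not be pre-mRNA. In WT, 9 of the 36 genes (25%) had more intron signal in total than in nuclear RNA, against 3.04% of 12048 genes. The ratio of total to nuclear intron FPKM was 3.31 for C3, 2.92 for C8g, 2.75 for Ahsg, 2.72 for Hpx, 2.15 for Fga, 2.10 for Cfb, 1.92 for Fgg, 1.73 for Kng1 and 1.38 for Vtn. FPKM in each library type is relative to its own reads, so the ratio compares shares of libraries. Exons of other GENCODE M21 transcripts covered 17.8% of the counted intron of C8g, 17.1% of Vtn and 13.7% of Ahsg. For Fgg the share was 6.92%, for Fga 5.79%, for Kng1 5.09% and for Cfb 1.69%, and for C3 and Hpx 0%. How far such reads set the differences between genotypes was not tested.

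In nuclear introns the clearest difference was at hemopexin. There 3 of the 36 were higher in Nono-/-, where 7.91% of all tested genes were higher, and 1 was lower, where 10.2% were lower. The median was 0.16 over the 36 genes and -0.01 over all 12055 genes. Hpx (chr7:105591611-105600116, minus strand) was at 6.55 FPKM at its lowest, 9.48 FPKM at the median and 17.3 FPKM at its highest in WT, and at 11.2, 18.8 and 45.6 FPKM in Nono-/-. The ranges overlap, and Nono-/- was higher at 10 of 12 time points. The difference was 0.88 ± 0.178, or 1.84-fold (limma, adjusted p = 0.00388). It held under every alternative tried, with values from 0.79 to 0.96 and adjusted p up to 0.0217. Hpx mRNA in total RNA, at a median of 2371 FPKM in WT and 2911 FPKM in Nono-/-, differed by 0.21 (adjusted p = 0.466), and its nuclear exons did not pass.

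The other 3 calls had larger adjusted p. Kng1 ran from 6.43 to 15.7 FPKM with a median of 8.95 FPKM in WT and from 5.41 to 32.1 FPKM with a median of 12.1 FPKM in Nono-/-, and F2 from 8.47 to 14.6 FPKM with a median of 9.55 FPKM in WT and from 4.99 to 9.93 FPKM with a median of 8.41 FPKM in Nono-/-. All ranges overlap. Kng1 was higher by 0.53 ± 0.151 (limma, adjusted p = 0.0202) and Pros1 by 0.36 ± 0.111 (adjusted p = 0.0303), and F2 fell by 0.33 ± 0.089 (adjusted p = 0.0162). Exons of other GENCODE M21 transcripts covered 28.0% of the counted intron of F2, 5.09% of Kng1 and 1.07% of Pros1. The part of exon reads in these calls was not tested. The Kng1 call was lost without ZT2 (0.0566) or ZT20 (0.0531), F2 without ZT6 (0.0625) or ZT18 (0.0614) and Pros1 without ZT6 (0.0681), ZT10 (0.0556), ZT18 (0.0793), ZT20 (0.0681) or ZT22 (0.066). Without ZT0, 9 of the 36 passed and without ZT6, ZT18 or ZT20, 2. With the time point as a block, which compares the 2 genotypes within each time, 8 passed, adding F13b at 0.35, Masp1 at 0.26, Ttr at 0.53 and Vtn at -0.35. Shares over all genes without ZT0 and with the block are not given here.

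Ratios between readouts of the same pools passed for few of the genes. The ratio of nuclear to total exons was higher in Nono-/- for 1 of the 36, where 10.4% of all tested genes were higher, and lower for 1, where 9.19% were lower (19.6% in either direction). The ratio of total exons to nuclear introns was higher for 0 of the 36, where 3.15% were higher, and lower for 1, where 4.29% were lower (7.43% in either direction). At an unadjusted p under 0.05, 15 of the 36 and 3679 of all 9871 genes differed in the first ratio, and 8 of the 36 and 2646 of all 10492 genes in the second. The 3 genes were Hc (0.35), Vtn (-0.59) and Masp1 (-0.47), and none of these calls held through all choices of time points.

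Other genes of these pathways were read from 4 lists. Of 16 further coagulation genes tested in total RNA exons, 1 was higher in Nono-/- (F8, factor VIII, by 0.28, limma, adjusted p = 0.0312), and of 21 further complement genes 0 passed, with 4 at an unadjusted p under 0.05. Of the 5 genes for vitamin K carboxylation and for secretion of factors V and VIII, Ggcx, the carboxylase itself, fell by 0.26 (adjusted p = 0.00225). Among transcription factors and receptors that regulate hepatocyte genes, Hnf4a, which is also 1 of the 12 hepatocyte markers, fell by 0.23 (adjusted p = 0.0339). In total RNA exons 4.45% of all tested genes were higher and 6.48% lower. Counts over this list of regulators, and over the complement list in nuclear RNA, are not given here. In nuclear exons 4 of 13 coagulation genes were higher and 0 lower, where 15.7% of all genes were higher and 18.6% lower, with F3, the tissue factor gene, at 0.59 (adjusted p = 0.00338) and F8 at 0.53 (0.00228). Among the further complement genes Cd46, which protects cells from complement, was higher by 0.75 (0.00117).

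Hnf4a was also lower in Nono-/- nuclei. In nuclear exons, where the mean hepatocyte marker sum was 1606 FPKM in WT and 1229 FPKM in Nono-/-, it was at -0.59 and lower at 12 of 12 time points, and Il6ra, the interleukin 6 receptor, was at -0.61 (limma, adjusted p = 0.00151 and 0.00401). Of all genes tested in nuclear exons, 18.6% were lower. In nuclear introns Hnf4a was at -0.61 (adjusted p = 0.00244), again lower at 12 of 12 time points. Of the 13 further coagulation genes tested in nuclear introns, F8 and Hrg were higher and 0 lower, where 7.91% of all genes were higher and 10.2% lower, and Cd46 was also higher, by 0.43 (adjusted p = 0.00987).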

How the data were processed

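Labels gave genotype, RNA fraction and time of the 48 libraries. Per the labels' protocols, libraries were stranded and depleted of ribosomal RNA. Per the submitters' processing notes, FastQC 0.11.2, STAR 2.4.0k and the build mm10 were used. Per the file headers, the authors computed FPKM with analyzeRepeats.pl of HOMER, counting exons in one table and introns in the other, with isoforms condensed and no strand option given. The version was not given in the sources used here. Pooling of 2 mice came before sequencing.

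All 48 columns of each table were used, and no 2 of the 1128 pairs of libraries were identical. Reads behind the lowest values were whole (100% within 0.1 read), which gave the depths. Tests stayed on FPKM, and no interval for counting error is given. R 4.3.3 with limma 3.58.1 was run on log2(FPKM + 0.1) for exons or log2(FPKM + 0.05) for introns after median-ratio scaling, for genes with a mean of at least 0.5 or 0.1 FPKM. Differences are on this scale, which understates changes of low genes. The model held genotype, a cosine and a sine of 24 h and their products with genotype, in 12 comparisons, each with Benjamini-Hochberg adjustment over all genes and a threshold of 0.05. Python 3.11.15 and matplotlib 3.10.9 drew the figures.

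The script was tested on simulated data. In the total exon comparison, run on 11352 genes, it recovered 74% of 100 genotype differences of 0.5 (log2) and 94% of 100 of size 1, and 8% and 58% of rhythms of those sizes. In the nuclear intron comparison, run on 12055 genes, the shares were 70%, 95%, 13% and 68%. False calls numbered 11 for genotype and 4 for rhythm in total exons, and 13 and 8 in nuclear introns. A far smaller part of the genes was rhythmic in the simulation than passed in the data. The adjustment was thus stricter in the simulation, and the shares of rhythms recovered need not hold for the data.

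Deviations of same-time libraries of the 2 genotypes correlated above 0.1 in 12 of 12 pairs for total exons (0.143 to 0.563) and for introns of either fraction. For nuclear exons this held in 11 of 12. With the fitted daily curve removed, it held in 9 of 12 pairs for total exons (-0.205 to 0.378) and 9 for nuclear introns. For nuclear exons and for total introns it then held in 7. Time of day is itself shared, so the block replaced the daily curve as an alternative. The members and gene lists were chosen with earlier results of these data known. All 36 members could be named. From the other lists, up to 4 genes of smallest p per list and comparison could be given with values. Saa1, Saa2 and Lcn2 were chosen after their values were seen. Alternatives changed the scaling, pseudocount, filter, covariates, block and time points. Leaving out the 2 acute-phase pools was chosen after seeing the data. Some genes of the other lists are not reported here.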

Additional observations from a re-analysis of the deposited data

Results flagged for a closer look

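Genotype differences in 3 ratios between readouts of the same pools passed the test, so that the 2 readouts of these genes differed unequally. The nuclear to total exon ratio of Hc, complement C5, was higher in Nono-/- by 0.35 (log2; limma, adjusted p = 0.0247) and higher at 10 of 12 time points. That of Vtn was lower, at -0.59 (adjusted p = 0.0433), at 9 of 12 time points. With the time point as a block, Hc (adjusted p = 0.0532) and Vtn (0.0744) were lost and only F5 passed, at 0.37 (0.0327). Without ZT0, 12 of the 36 genes passed, and without ZT6, ZT8, ZT12, ZT18 or ZT22, 0.

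The total exon to nuclear intron ratio of Masp1 was lower in Nono-/-, at -0.47 (limma, adjusted p = 0.0315), at 12 of 12 time points. It held with the time point as a block (0.01). It was lost without ZT2, ZT4, ZT6, ZT8, ZT14, ZT16 or ZT22, at adjusted p from 0.0506 to 0.0726. Masp1 introns in nuclei were at 3.68 ± 0.740 FPKM in WT and 4.34 ± 0.680 FPKM in Nono-/- (SD, n = 12), and its mRNA at 30.8 ± 6.26 and 26.8 ± 4.24 FPKM.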

How the results depend on the processing

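With 1 pool per time point, no time can be checked against a replicate, and most simulated rhythms of 0.5 (log2) were not recovered. Leaving out 1 time point moved the number of members called from 1 to a range of 1 to 7 in total exons, 13 to 8 to 15 in nuclear exons, 5 to 1 to 11 in total introns and 4 to 2 to 9 in nuclear introns. It gave 5 to 11 WT and 5 to 19 Nono-/- rhythms in total exons, 8 to 13 WT and 15 to 20 Nono-/- rhythms in nuclear introns, 0 to 12 members in the nuclear to total ratio and 0 to 3 in the exon to intron ratio. With intron share as a covariate the numbers were 0 in total exons, 2 in nuclear exons, 0 in total introns, 1 in nuclear introns and 0 in both ratios, and C8g in total introns turned to -0.084 (adjusted p = 0.838). Over all genes that covariate left 23 calls of 1241 in total exons, 1062 of 3604 in nuclear exons, 25 of 1504 in total introns 1004 of 2177 in nuclear introns, 131 of 1934 in the nuclear to total ratio and 104 of 780 in the exon to intron ratio. The stricter filter left 1853 in nuclear exons, 705 in total introns and 1216 in the nuclear to total ratio, where the block left 1120. Leaving out 1 time point took the calls over all genes as low as 715 (ZT16), 2114 (ZT6), 784 (ZT18) and 1133 (ZT6) in these 4 readouts, 1641 for WT (ZT22, from 2496) and 2512 for Nono-/- (ZT2, from 3827) intron rhythms, 603 (ZT8) to 3434 (ZT0) in the first ratio and 267 (ZT6) to 1239 (ZT0) in the second. With no scaling they were 4 in total exons, 1 in total introns, 9 in the nuclear to total ratio and 0 in the exon to intron ratio, and Cfi in total introns turned to -0.082 (adjusted p = 0.419). Calls over all genes in total introns then numbered 3546, with 2.88% of them higher in place of 41.5%, and in total exons 58.6% were higher in place of 40.7%. In nuclear introns, upper-quartile scaling moved that share from 43.8% to 53.9%. With the share of the 10 highest genes as a covariate the numbers were 3 in total exons, 3 in total introns and 15 for Nono-/- intron rhythms. Upper-quartile scaling and no filter each gave 3 in total introns, and no filter gave 8 for Nono-/- rhythms in total exons. A pseudocount 10 times larger gave 4 and 2 in the ratios, and a filter 4 times stricter gave 6 in the nuclear to total ratio. With the time point as a replicate block, 8 passed in nuclear introns and 1 in the nuclear to total ratio. It gave 18 in nuclear exons, 6 in total introns and 1 in total exons, where it changed no call. Without the 2 acute-phase pools there were 4 in total exons, 14 for WT rhythms there, 8 in total introns, 1 in the nuclear to total ratio and 2 in the exon to intron ratio. The cause of these shifts was not tested. The difference in rhythm stayed at 0 under all alternatives run.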
